A study of Mus musculus with 59 samples.

Results

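The response to cold of the brown adipose tissue (BAT) was followed in BATKO mice, with 4 mice kept at 4 °C (mice 7, 8, 11 and 12) and 5 kept at 30 °C (mice 13 to 17). These 9 mice are all the BATKO mice of a temperature experiment of 16 mice, within a series of 59 mice, and were chosen by genotype and temperature alone. The other 7 mice of that experiment are controls (CTRL), 3 at 4 °C and 4 at 30 °C. All were C57BL/6J males of 8 to 12 weeks, and each gave 1 RNA-seq library of the whole tissue, read as counts per gene. The labels use BATKO as the genotype without saying which gene is altered, by which Cre or in which cells, so no targeted gene could be checked. They attach 24 h to the table of this experiment without saying what was timed. Where the mice came from, and whether they were littermates, is not given in the sources used here, so that p-values measure the spread between these mice.

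BAT burns fuel to make heat. At thermoneutrality, near 30 °C for a mouse, it is little used, whereas cold makes sympathetic nerves release noradrenaline in the tissue, which acts through adrenergic receptors, cAMP and protein kinase A. Lipolysis follows within minutes, UCP1 dissipates the proton gradient of the mitochondria, and transcription of thermogenic genes increases. BAT kept in the cold for a day or more is also known to take up glucose and lipoproteins, and to make and burn fatty acids at the same time. Type 2 deiodinase (Dio2) converts T4 to the active thyroid hormone T3 in brown adipocytes.

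The libraries held between 8008348 and 11880799 counts per BATKO mouse. Mitochondrial genes took 48.6% ± 3.89 of the counts at 4 °C (SD, n = 4) and 45.5% ± 5.28 at 30 °C (SD, n = 5), a difference that did not pass the test (exact permutation test, two-sided, p = 0.3175, where 0.01587 is the smallest p that 4 mice against 5 allow). Markers of brown adipocytes, Ucp1, Fabp4 and Cidea among them, were counted in each mouse, with sums over 10 markers of at least 72992 normalized counts. Skeletal muscle markers, in contrast, differed between mice within a group. The sum of 13 muscle markers was 11287, 13774, 20492 and 78.7 normalized counts in mice 7, 8, 11 and 12, and 90217, 102, 64.3, 5788 and 98368 in mice 13 to 17. It was thus highest in mice 13 and 17, both at 30 °C, and 0 of the 13 markers passed the test between temperatures by edgeR or DESeq2 or at an unadjusted p under 0.05. Erythroid markers were higher in each mouse at 4 °C, with sums between 8387 and 12082 against 1979 to 5385 at 30 °C, and the part of blood in the results was not tested. Xist RNA was counted in mouse 12 (68.5 normalized counts) and mouse 13 (86.1), against at most 9.42 in the other BATKO mice, although Y-linked genes were counted in all 9 mice (469 to 956). In whole tissue, fewer cells of a type and less RNA per cell cannot be told apart.

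**Figure D1:**
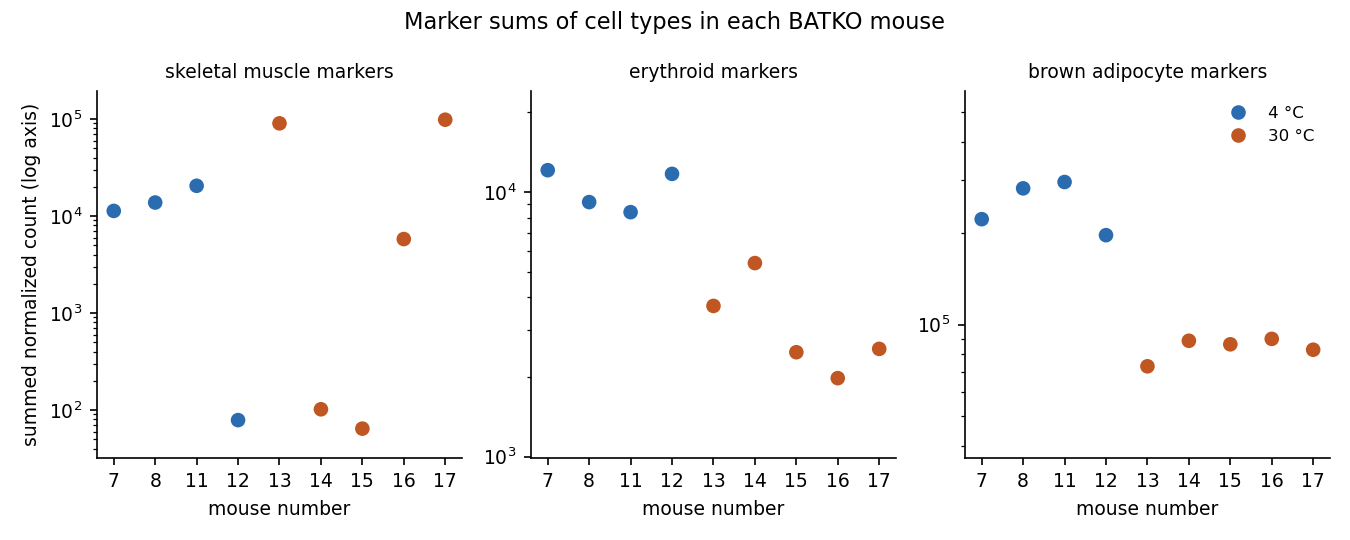
Summed normalized counts (log axis) of the markers of skeletal muscle, erythroid cells and brown adipocytes in each BATKO mouse, by mouse number, with 4 mice at 4 °C in blue and 5 at 30 °C in orange. Muscle markers span from 64.3 to 98368 among mice at 30 °C, and erythroid and brown adipocyte sums are higher in each mouse at 4 °C than in any mouse at 30 °C.

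Of 13267 genes tested, 2836 (21.4%) were upregulated and 2504 (18.9%) downregulated at 4 °C in BATKO mice, by edgeR's quasi-likelihood test with a Benjamini-Hochberg adjusted p under 0.05. The change was at least 2-fold for 912 upregulated and 955 downregulated genes, and at least 8-fold for 45 and 35. The median log2 fold change of all tested genes was -0.02, a value that the scaling sets near 0, so a shift of most genes in one direction could not be seen. The 4 and 5 mice did not overlap, with all 4 °C values above, for 2231 genes (16.8%), and with all below for 1902 (14.3%). The first principal component of all 16 mice held 46.4% of the variance and separated the temperatures, with BATKO mice between 30.8 and 47.9 at 4 °C and between -44.8 and -33.6 at 30 °C. CTRL mice at 4 °C lay further out, between 62.0 and 72.4. The second held 19.9% and followed the muscle markers (Pearson's r = 0.966 over 16 mice, given as a description). Without mice 13 and 17, 2377 genes were upregulated and 2074 downregulated.

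Among the largest increases were those of Elovl3, Gys2 and Gk, which act in lipid and glucose handling. Elovl3, which elongates saturated fatty acids in brown fat (chromosome 19 from 46131897 to 46135694, GRCm38), had 4421, 11900, 5469 and 2342 normalized counts in mice 7, 8, 11 and 12 at 4 °C, and 12.8, 5.04, 2.84, 15.2 and 2.94 in mice 13 to 17 at 30 °C. Every mouse in the cold was far above every mouse at 30 °C (log2 fold change 9.59, standard error 0.68, edgeR adjusted p = 1.53e-07). Values of mice are given in this order throughout. Gys2, a glycogen synthase known from liver (chromosome 6 from 142422613 to 142473109), had 1626, 1547, 1557 and 1297 normalized counts at 4 °C and 46.9, 26.2, 56.8, 42.7 and 39.8 at 30 °C. It was the most even of these increases, with little spread in the cold (log2 fold change 5.14, standard error 0.26, edgeR adjusted p = 4.35e-09). Glycerol kinase (Gk, chromosome X from 85701937 to 85776819), which phosphorylates glycerol so that it can be used again for triglycerides, had 4731, 3984, 5600 and 4048 at 4 °C and 152, 109.9, 146, 134 and 268 at 30 °C. The groups were well apart, mouse 17 being the highest at 30 °C (log2 fold change 4.82, standard error 0.34, edgeR adjusted p = 1.58e-07).

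Other large increases were those of Hephl1, a copper ferroxidase (5.38), of the cytochromes P450 Cyp1a1 (5.21) and Cyp2b10 (5.02), of Dhrs9, a retinol dehydrogenase (4.45), of the mitochondrial carrier Slc25a34 (4.21) and of Cend1 (4.19), all as log2 fold changes with an edgeR adjusted p of at most 0.000117. Single mice moved some of these values, to 4.17 for Cyp1a1 and 4.29 for Cyp2b10 without mouse 8, to 6.05 for Hephl1 without mouse 15 and to 5.38 for Dhrs9 without mouse 17. Without mice 13 and 17, Hephl1 was at 4.76 and Slc25a34 at 5.21. Cyp2b10 was uneven in the cold, with 30.3, 1219, 416 and 555 normalized counts against 11.4 to 23.2 at 30 °C. Mouse 7 was close to the mice at 30 °C and the other three were far above. Acot1, an acyl-CoA thioesterase, rose from 0.946 to 16.9 to 185 to 332 (log2 fold change 4.76, standard error 0.61, edgeR adjusted p = 2.05e-05), but its count is uncertain because it has close paralogs, Acot2 among them. The antisense genes Gm16062 (5.12) and Gm15241 (4.45) also rose, Gm16062 by 6.09 without mice 13 and 17. Since the strand setting of the counting is not stated, their reads cannot be told apart from those of Cops3, which covers 36.2% of the exonic bases of Gm16062, and of Adgrg2, which covers 28.9% of those of Gm15241.

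Among called genes with a mean above 50 and no overlap between the BATKO groups, the largest decrease was that of Plekhg6, a guanine nucleotide exchange factor. Plekhg6 had 1.08, 3.53, 0 and 1.02 normalized counts at 4 °C and 46.0, 178, 107, 217 and 141 at 30 °C. Its 4 mice in the cold held 5 counts in all, against 764 in the 5 others, a ratio of 97.3 per library size with a 95% counting interval from 41.5 to 300.5. Mouse 8 held most of these 5 counts, and the fitted log2 fold change of Plekhg6, which depends on the prior count, was -6.50 with all mice and -7.34 without mouse 8. Apcdd1, an inhibitor of Wnt signalling, had 24.9, 16.5, 7.16 and 9.20 normalized counts at 4 °C against 239, 372, 229, 228 and 228 at 30 °C, without overlap (log2 fold change -4.15, standard error 0.34, edgeR adjusted p = 3.71e-07). Myc (-3.40) and Mycl (-3.38), transcription factors of growth, fell together with Impdh1, an enzyme of guanine nucleotide synthesis (-3.28), Strip2 (-3.56), Cdsn (-3.40), Trp53i11 (-3.31), Arc, known as an activity-induced gene of neurons (-3.29), and Nnat, a marker of white fat in the lists used here (-3.21), as log2 fold changes with an edgeR adjusted p of at most 0.00307. That of Arc was -2.59 without mouse 17, that of Impdh1 -3.92 without mouse 12 and that of Nnat -2.57 without mice 13 and 17. Impdh1 had 168, 151, 134 and 481 normalized counts at 4 °C and 1645, 2599, 1632, 2565 and 2930 at 30 °C, mouse 12 being the highest in the cold.

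**Figure D2:**
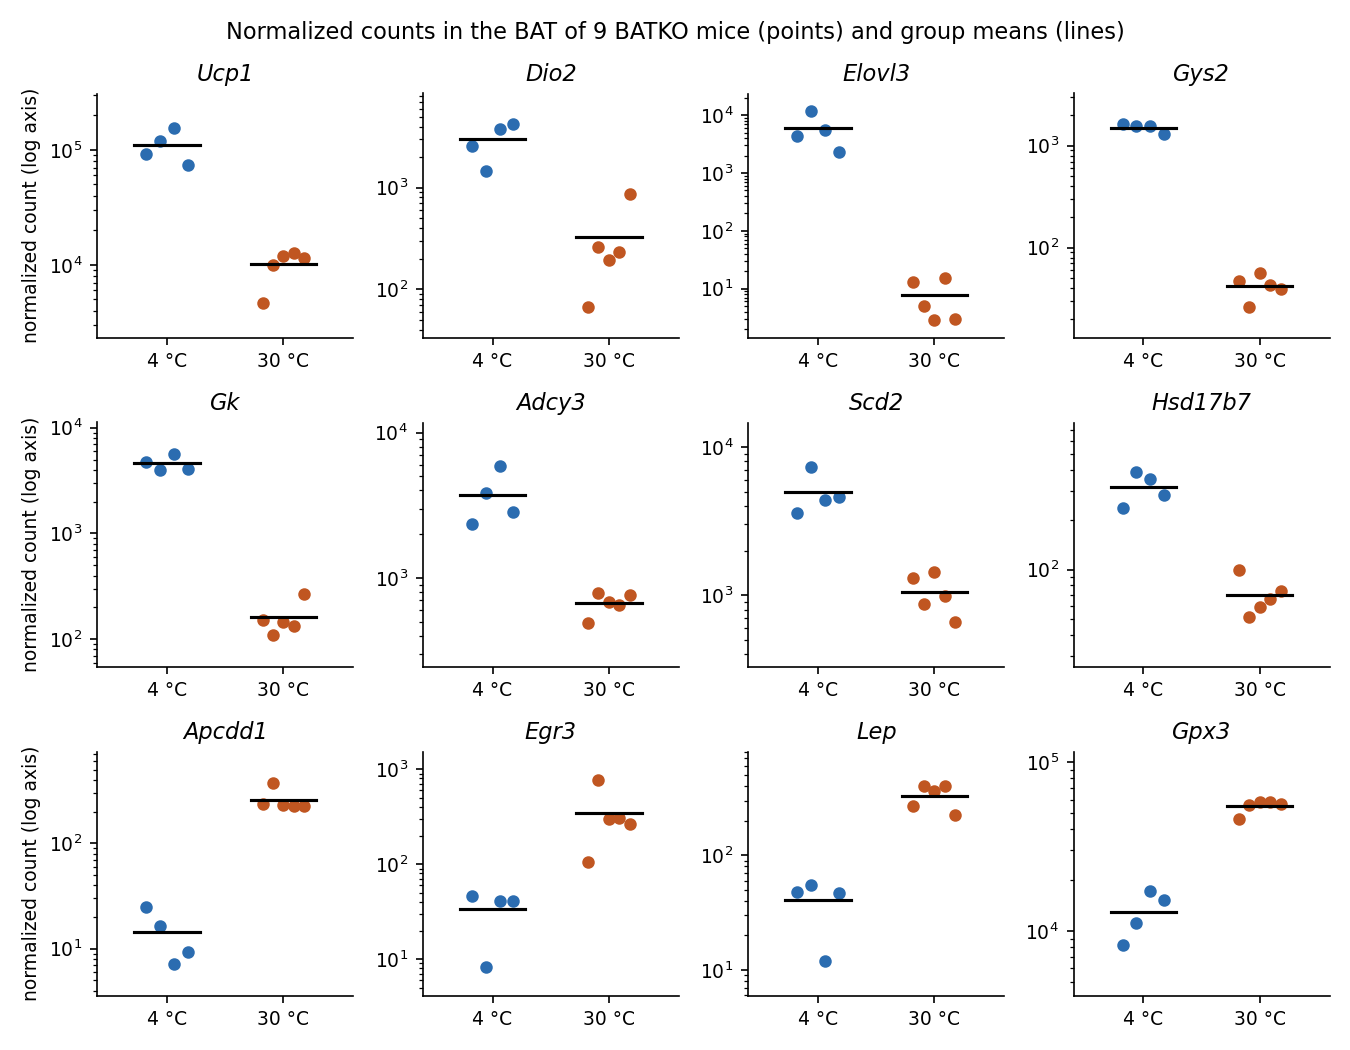
Normalized counts (log axis) of 12 genes in the BAT of the 4 BATKO mice at 4 °C (blue) and the 5 at 30 °C (orange), each point a mouse and each line a group mean. In each of these genes the 2 groups do not overlap, with Ucp1 to Hsd17b7 higher and Apcdd1 to Gpx3 lower at 4 °C.

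Ucp1, the uncoupling protein of brown fat (chromosome 8 from 83290352 to 83298452), had 91120, 119100, 154500 and 73900 normalized counts at 4 °C and 4644, 10000, 11920, 12740 and 11520 at 30 °C. The lowest mouse in the cold was well above the highest at 30 °C, where mouse 13 was the lowest (log2 fold change 3.43, standard error 0.44, edgeR adjusted p = 2.22e-05). Ucp1 took 0.919% ± 0.348 of all counts at 4 °C (SD, n = 4) and 0.109% ± 0.0321 at 30 °C (SD, n = 5) (exact permutation test, two-sided, p = 0.01587). Dio2 (chromosome 12 from 90724552 to 90738438) had 2560, 1443, 3786 and 4234 at 4 °C and 66.5, 261, 192, 234 and 865 at 30 °C. The groups did not overlap, but mouse 17, one of the 2 mice richest in muscle RNA, was far above the others at 30 °C (log2 fold change 3.21, standard error 0.80, edgeR adjusted p = 0.00432). Without it the log2 fold change of Dio2 was 4.00. Ppargc1a, the coactivator PGC-1alpha of mitochondrial genes, had 409, 423, 632 and 436 against 252, 166, 178, 174 and 267, without overlap (log2 fold change 1.19, standard error 0.30, edgeR adjusted p = 0.00522).

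Of the 30 genes of the thermogenic programme, all of which were tested, 17 rose and 3 fell, with a median log2 fold change of 0.82. This is read against 21.4% upregulated and a median of -0.02 among all genes. The proton channel Otop1 (2.45), the mitochondrial protein Letmd1 (1.38), the thioesterase Acot11 (2.59), the lipid droplet protein Cidea (0.86) and Prdm16, a determinant of brown fat identity (0.76), were among those that rose, with an edgeR adjusted p of at most 0.00326, and 20.9% of the exonic bases of Acot11 lie under Fam151a on the other strand. Irf4, a transcription factor of adipocytes, fell from 539, 2136, 3454, 501 and 722 at 30 °C to 389.7, 145, 197 and 329 at 4 °C (log2 fold change -2.47, standard error 0.53, edgeR adjusted p = 0.00151), and mice 14 and 15 were far above the others. Without mouse 15 its log2 fold change was -1.87. Cidea, Acot11 and Irf4 were chosen after their values were seen, as were other well-known members of lists named in the methods.

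Of 33 genes of adrenergic and cAMP signalling, 12 rose, or 9 without mouse 11 or mouse 12 (median 0.17). The number that fell was 4, or 6 without mouse 13. Among all genes 21.4% rose and 18.9% fell, so the share that rose was above that of all genes. The share that fell was below that of all genes with all mice, and near it without mouse 13. The receptors did not move together. Adrb3, the main beta receptor of brown adipocytes, had 1395, 1786, 1681 and 1708 normalized counts at 4 °C and 728, 661, 938, 1173 and 1021 at 30 °C, without overlap (log2 fold change 0.86, standard error 0.27, edgeR adjusted p = 0.0192), although its adjusted p was 0.0528 without mouse 8 and 0.0618 without mice 13 and 17, and 24.9% of its exonic bases lie under a gene on the other strand. Adrb1 overlapped between the groups (log2 fold change 0.28, edgeR adjusted p = 0.409), and Adra1d, an alpha-1 receptor of low count, fell (log2 fold change -2.04, standard error 0.37, edgeR adjusted p = 0.000368). Downstream of the receptors, Adcy3, the adenylyl cyclase, had 2349, 3829, 5864 and 2837 at 4 °C and 490.2, 789, 683, 654 and 768 at 30 °C, without overlap (log2 fold change 2.46, standard error 0.24, edgeR adjusted p = 1.69e-06). Pde7b, a phosphodiesterase that degrades cAMP, rose from 44.4 to 82.3 to 77.7 to 284 (log2 fold change 1.75, standard error 0.33, edgeR adjusted p = 0.000618). The counts of Adcy3 could include reads of Cenpo, which covers 22.1% of its exonic bases on the other strand.

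Immediate early genes, which are induced within minutes of stimulation of a cell, were mostly lower at 4 °C. Of 22 such genes tested, none rose and 14 fell, against 21.4% and 18.9% of all genes, with a median log2 fold change of -1.49. The number that rose was 0 by edgeR, by DESeq2 and at an unadjusted p under 0.05. Egr1 had 1382, 366, 695 and 970.4 normalized counts at 4 °C and 5052, 8379, 5747, 4260 and 3196 at 30 °C, and all mice in the cold were below all at 30 °C (log2 fold change -2.64, standard error 0.56, edgeR adjusted p = 0.00148). Egr3 (-3.34), Btg2, an antiproliferative gene (-2.97), Zfp36, which destabilizes cytokine mRNAs (-2.05), and Junb (-2.01) fell as well, with an edgeR adjusted p of at most 0.00229. Fos (-1.33, edgeR adjusted p = 0.0856) and Nr4a1 (-1.0, edgeR adjusted p = 0.212) did not pass the test, although Fos did without mouse 7 (-2.03, edgeR adjusted p = 0.0188). Mouse 8 was the lowest of all 9 mice in Fos (1237, 119, 418 and 542 at 4 °C, 658, 1931, 1255, 1773 and 1674 at 30 °C) and also in Egr1 and Zfp36.

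**Figure D3:**
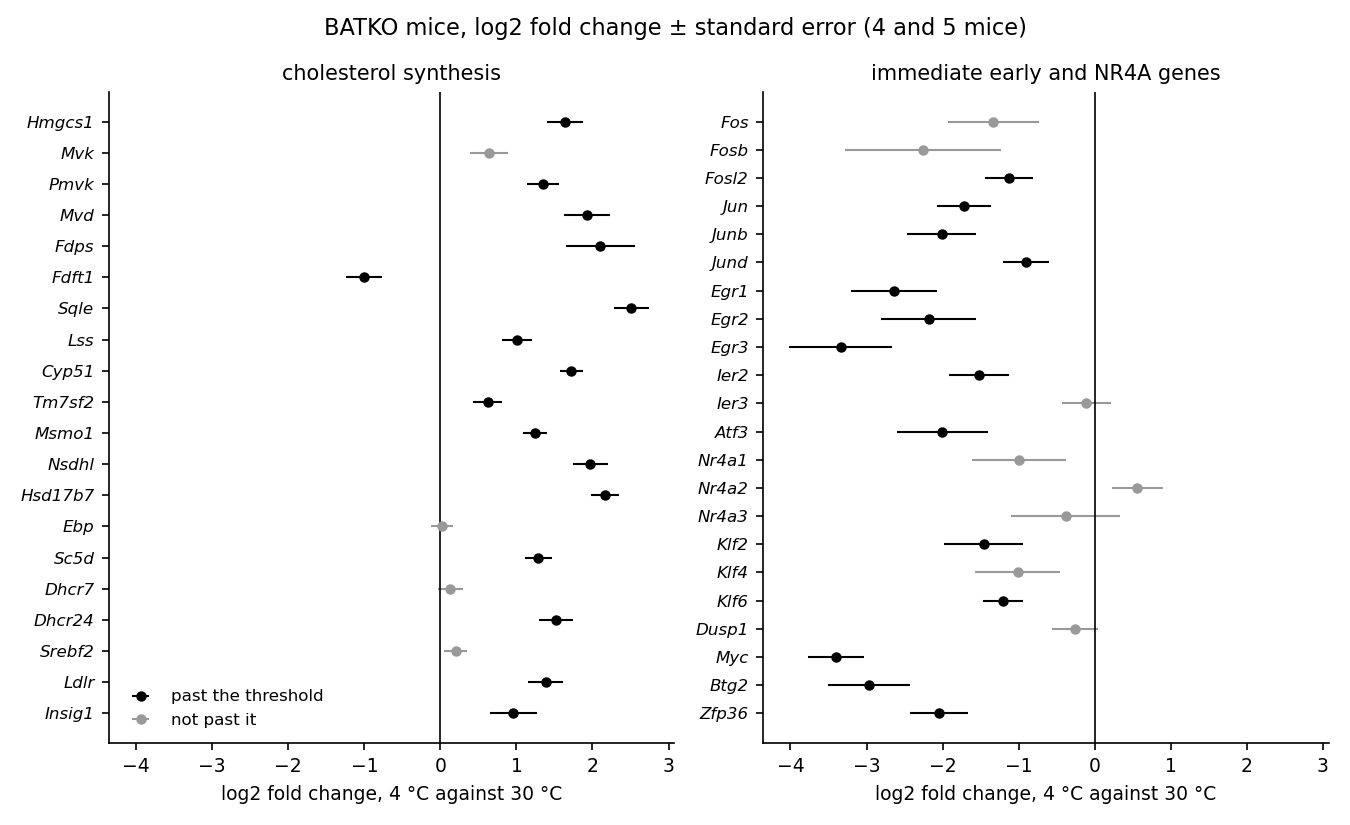
Log2 fold change (4 °C against 30 °C, positive when higher at 4 °C) with its standard error for 20 members of the cholesterol synthesis list (left) and the 22 tested members of the immediate early and NR4A list (right) in 4 and 5 BATKO mice. Black points are past the adjusted p threshold and grey points are not. On the left 15 of the members shown rose and Fdft1 fell, and on the right 14 fell.

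The cAMP response element (CRE, TGACGTCA, the same on both strands) is the site known to bind CREB, the transcription factor activated by protein kinase A. RefSeq promoters (GRCm38.p6, from 250 bases before to 50 after the start) were matched by symbol for 9527 of the 13267 tested genes, and 338 of them (3.55%) hold it. The share was 4.11% among upregulated and 2.86% among downregulated genes. Of the 36 promoters of genes upregulated at least 8-fold, 2 held it (5.56%) and 7 the half-site TGACG (19.4%). This half-site, searched on both strands and part of each whole CRE, was in 36.7% of the promoters of upregulated genes, 30.2% of those of downregulated genes and 35.6% of all. The nuclear receptor half-site AGGTCA, searched on both strands, was in 17.2%, 14.4% and 14.7%, and the E-box CACGTG in 12.1%, 11.8% and 12.0%. Among the 36 promoters of genes upregulated at least 8-fold, AGGTCA was in 10 (27.8%) and the E-box in 3 (8.33%). These shares were not tested. Of 18 promoters of the immediate early list, 2 held the CRE (11.1%) and 12 the half-site (66.7%). In the lists of thermogenesis, lipogenesis, triglyceride synthesis and cholesterol synthesis, 0 or 1 promoter of each held the CRE, and the half-site was in 37.5%, 16.7%, 40.0% and 53.3%. Promoters with a CRE were found in both directions. Among the named genes, it lies before the start in 4 that rose (Dio2, Trp53inp2, Uqcrfs1 and Cycs) and in 1 that fell (Btg2), and after the start in Gm16062, which rose. To show these 5 sites, the 250 bases before the start are printed 5′ to 3′ with the CRE in capitals. It begins 95 bases before the start in Dio2 (chr12:90739039-90739288, minus strand), 41 in Trp53inp2 (chr2:155381606-155381855, plus strand), 29 in Uqcrfs1 (chr13:30545317-30545566, minus strand), 169 in Cycs (chr6:50566570-50566819, minus strand) and 166 in Btg2 (chr1:134079156-134079405, minus strand).
Dio2: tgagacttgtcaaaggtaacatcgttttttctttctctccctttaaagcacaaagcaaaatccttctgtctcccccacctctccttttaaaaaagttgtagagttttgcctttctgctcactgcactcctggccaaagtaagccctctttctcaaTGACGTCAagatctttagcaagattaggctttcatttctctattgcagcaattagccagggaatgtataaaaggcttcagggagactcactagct
Trp53inp2: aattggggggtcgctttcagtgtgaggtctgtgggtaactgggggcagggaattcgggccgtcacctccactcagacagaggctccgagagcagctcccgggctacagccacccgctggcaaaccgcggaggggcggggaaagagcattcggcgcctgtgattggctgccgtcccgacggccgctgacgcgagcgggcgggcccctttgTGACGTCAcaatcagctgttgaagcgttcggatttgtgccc
Uqcrfs1: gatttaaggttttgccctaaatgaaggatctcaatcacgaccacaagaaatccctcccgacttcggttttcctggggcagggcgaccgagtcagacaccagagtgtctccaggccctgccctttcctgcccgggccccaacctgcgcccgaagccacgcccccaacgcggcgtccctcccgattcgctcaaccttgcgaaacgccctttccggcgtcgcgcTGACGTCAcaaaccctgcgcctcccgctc
Cycs: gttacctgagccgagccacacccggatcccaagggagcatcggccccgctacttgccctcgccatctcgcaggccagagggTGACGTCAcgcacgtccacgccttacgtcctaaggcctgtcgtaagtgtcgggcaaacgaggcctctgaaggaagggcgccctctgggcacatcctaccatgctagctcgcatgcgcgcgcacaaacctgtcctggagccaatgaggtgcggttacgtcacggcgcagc
Btg2: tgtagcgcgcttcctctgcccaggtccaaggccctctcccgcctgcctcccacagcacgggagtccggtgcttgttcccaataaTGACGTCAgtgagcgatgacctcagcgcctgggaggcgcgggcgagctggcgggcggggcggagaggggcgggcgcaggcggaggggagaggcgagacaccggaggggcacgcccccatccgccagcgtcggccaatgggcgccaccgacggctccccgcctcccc

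The thyroid hormone receptors changed little in comparison. Thra had 165 ± 31.3 normalized counts at 4 °C (SD, n = 4) and 249.9 ± 45.1 at 30 °C (SD, n = 5), with overlap (log2 fold change -0.60, standard error 0.19, edgeR adjusted p = 0.019), and its adjusted p was 0.0639 without mouse 7 and 0.0644 without mice 13 and 17. Some of its reads could belong to Nr1d1, which covers 5.70% of its exonic bases on the other strand and also fell. Thrb had 247, 260.2, 222 and 188 against 289.9, 214, 261, 242 and 174, and did not pass the test (log2 fold change -0.04, standard error 0.15, edgeR adjusted p = 0.842). Of 22 genes of thyroid hormone signalling, 8 rose and 4 fell, or 2 without mouse 7. The share that rose was above the 21.4% of all genes, and the share that fell was near their 18.9% or, without mouse 7, below it. The transporter Slc16a10 (1.29), the receptor partner Rxrg (0.97), and the hormone-responsive genes Trp53inp2 (1.35) and Thrsp (1.30) rose, with an edgeR adjusted p of at most 0.00125. Trp53inp2 had 5579, 6466, 7765 and 6400 normalized counts at 4 °C and 1806, 2222, 2634, 3285 and 2939 at 30 °C. Hr, known as a direct target of the hormone, had 13.0, 14.1, 17.9 and 27.6 against 17.9, 42.3, 66.2, 108 and 181, the lowest of the mice at 30 °C lying within the cold group (log2 fold change -2.19, standard error 0.66, edgeR adjusted p = 0.0151).

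Of 22 genes of de novo lipogenesis, 16 rose and 1 fell (median 0.89), against 21.4% and 18.9% of all genes. Acly, which makes cytosolic acetyl-CoA, had 18570, 17210, 13100 and 5204 normalized counts at 4 °C and 3243, 3078, 6050, 3837 and 2268 at 30 °C, mouse 12 lying below mouse 15 (log2 fold change 1.87, standard error 0.44, edgeR adjusted p = 0.00309). Fatty acid synthase (Fasn) had 84700, 101900, 88190 and 55490 against 23570, 26420, 44390, 48080 and 25750, without overlap (log2 fold change 1.30, standard error 0.32, edgeR adjusted p = 0.00425). The desaturase Scd2 had 3601, 7319, 4408 and 4564 against 1303, 865, 1429, 982 and 658, also without overlap (log2 fold change 2.25, standard error 0.35, edgeR adjusted p = 0.000104). The elongase Elovl6 (2.09, edgeR adjusted p = 6.61e-06) and Pgd, which provides NADPH (2.24, edgeR adjusted p = 9.97e-06), rose 4-fold or more, whereas Fads1, a desaturase of polyunsaturated fatty acids, was the member that fell (log2 fold change -1.05, standard error 0.14, edgeR adjusted p = 3.03e-05).

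Triglyceride synthesis was the list with the highest share of upregulated members, 17 of 20 (median 0.93). None fell, and the shares among all genes were 21.4% upregulated and 18.9% downregulated. The number of members of this list that fell was 0 by DESeq2 and at an unadjusted p under 0.05 too. Agpat2, which acylates lysophosphatidic acid, had 39900, 49440, 40700 and 32170 normalized counts at 4 °C and 3141, 2783, 3265, 7795 and 6601 at 30 °C. The groups were wide apart, mice 16 and 17 being the highest at 30 °C (log2 fold change 3.10, standard error 0.46, edgeR adjusted p = 7.88e-05). The acyl-CoA synthetases Acsl5 (3.19) and Acsl1 (1.68) and Gpam, the mitochondrial glycerol phosphate acyltransferase (1.67), rose with an edgeR adjusted p of at most 2.75e-06. Gpat3, an isoform of the endoplasmic reticulum, had 334, 366, 291 and 452 against 170.5, 166, 185, 203 and 265, without overlap (log2 fold change 0.86, standard error 0.19, edgeR adjusted p = 0.00173), and 30.0% of its exonic bases are shared with a gene on the other strand. Dgat2, of the last step, overlapped between the groups (log2 fold change 0.14, edgeR adjusted p = 0.755).

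The lipases themselves did not pass the test. Pnpla2, the first lipase of triglyceride breakdown, had 15230, 28310, 19910 and 27210 normalized counts at 4 °C and 13700, 17200, 20970, 27650 and 23260 at 30 °C (edgeR adjusted p = 0.615), and Lipe, the second, was not past the threshold either (0.02 on the log2 scale, standard error 0.20, edgeR adjusted p = 0.951). Their activator and the coat of the droplets rose. Abhd5, the coactivator of Pnpla2, had 2474, 2635, 2300 and 1763 against 561, 493, 722, 570.0 and 617, without overlap (log2 fold change 1.95, standard error 0.15, edgeR adjusted p = 2.24e-07). Plin5, which ties droplets to mitochondria (1.60), Plin2 (2.14), seipin (Bscl2, 1.57) and Fitm2 (0.95), both needed for droplet formation, rose with an edgeR adjusted p of at most 5.54e-05. In all, 11 of 21 genes of this list rose and 2 fell (median 0.55), against 21.4% and 18.9% of all genes.

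For lipid uptake, 9 of 20 genes rose and 4 fell (median 0.20). Among all genes 21.4% rose and 18.9% fell, so the share of the list that fell was near that of all genes. Lipoprotein lipase (Lpl) had 81080, 85750, 86900 and 86160 normalized counts at 4 °C and 28780, 22270, 26780, 20830 and 21450 at 30 °C. Values in the cold were nearly equal between mice and above all those at 30 °C (log2 fold change 1.82, standard error 0.19, edgeR adjusted p = 2.72e-06). The inhibitors of this enzyme moved in opposite directions. Angptl4 had 628, 437, 476 and 449.9 against 2162, 2906, 2404, 1504 and 1663, and was lower in each mouse at 4 °C (log2 fold change -2.10, standard error 0.28, edgeR adjusted p = 2.75e-05). Angptl8, which restrains the lipase of muscle and heart, had 198, 1084, 370.1 and 648 against 66.5, 67.5, 61.5, 153 and 115, and was higher in each (log2 fold change 2.63, standard error 0.45, edgeR adjusted p = 0.00024). The fatty acid binding protein Fabp4 rose (log2 fold change 1.21, standard error 0.12, edgeR adjusted p = 2.55e-06), whereas apolipoprotein E (Apoe, -1.76) and the receptor Lrp1 (-1.44) fell with an edgeR adjusted p of at most 2.23e-05.

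Genes that burn fatty acids rose too, 14 of 21 (median 0.75), and 1 fell, or 0 without mouse 8, against 21.4% and 18.9% of all genes. The carnitine carrier Slc25a20 had 5362, 5531, 6002 and 5272 normalized counts at 4 °C and 1390, 1818, 1741, 2125 and 1928 at 30 °C, without overlap (log2 fold change 1.62, standard error 0.15, edgeR adjusted p = 1.53e-06). Cpt2, of the same transport (1.33), Etfdh, which passes electrons to the respiratory chain (1.61), and the thioesterase Acot2, with the same doubt on paralogs as Acot1 (1.90), rose with an edgeR adjusted p of at most 1.02e-05.

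Of 24 genes of glucose uptake and glycolysis, 16 rose (median 0.74) and 2 fell, against 21.4% and 18.9% of all genes. Only 1 fell without any one of mice 12, 13 and 17. Hexokinase 2 (Hk2) had 3489, 3843, 4111 and 2852 normalized counts at 4 °C and 714, 829.7, 914, 1127 and 1607 at 30 °C, without overlap (log2 fold change 1.78, standard error 0.34, edgeR adjusted p = 0.000552). The insulin-regulated transporter Slc2a4 rose by less (log2 fold change 0.70, standard error 0.18, edgeR adjusted p = 0.00484). Pfkp, of the committed step of glycolysis, had 914, 998, 829 and 606 against 206, 211, 237, 188 and 193, with little spread at 30 °C (log2 fold change 2.01, standard error 0.18, edgeR adjusted p = 7.72e-07). Pgk1 (1.26), Eno1 (1.44) and the lactate and pyruvate transporter Slc16a1 (1.17) rose with an edgeR adjusted p of at most 0.000219.

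Pyruvate entry and the TCA cycle had 17 of 31 genes higher (median 0.52) and 2 lower, against 21.4% and 18.9% of all genes. Only 1 was lower without any one of mice 8, 11, 12, 15 and 17. Both parts of the mitochondrial pyruvate carrier, Mpc1 (1.14) and Mpc2 (1.89), and Pdhx of the pyruvate dehydrogenase complex (1.65) rose, with an edgeR adjusted p of at most 6.46e-05, and 23.1% of the exonic bases of Mpc1 lie under a gene on the other strand. Idh2, the NADP-dependent isocitrate dehydrogenase of mitochondria, went the other way, with 537, 528, 781 and 519 normalized counts at 4 °C and 1432, 2061, 1516, 1695 and 1396 at 30 °C, and no overlap (log2 fold change -1.45, standard error 0.17, edgeR adjusted p = 7.41e-06).

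Of 40 nuclear genes of the respiratory chain, 26 rose and none fell (median 0.51), against 21.4% and 18.9% of all genes. The number that fell was also 0 by DESeq2 and at an unadjusted p under 0.05. Without mice 13 and 17, 17 rose. Uqcrfs1, the iron-sulfur subunit of complex III, had 16850, 16790, 19190 and 13870 normalized counts at 4 °C and 6681, 8276, 7750, 7304 and 6245 at 30 °C, without overlap (log2 fold change 1.20, standard error 0.13, edgeR adjusted p = 4.8e-06). Cytochrome c (Cycs, 1.48), Uqcrc2 (1.05) and the complex I subunit Ndufv2 (0.77) rose with an edgeR adjusted p of at most 0.000332. Changes of genes of the mitochondrial genome were less certain. Of 8 tested, 3 rose and 0 fell by edgeR, against 21.4% and 18.9% of all genes. The number that fell was 0 by DESeq2 and at an unadjusted p under 0.05 as well. Without any one of mice 8, 14 and 17 only 1 rose, a share below that of all genes. This was mt-Nd1 in each case, with 1644000, 1759000, 1293000 and 1372000 normalized counts at 4 °C and 742800, 596200, 928500, 1049000 and 738000 at 30 °C (log2 fold change 0.90, standard error 0.22, edgeR adjusted p = 0.00336). mt-Cytb was not past the threshold (0.36 on the log2 scale, standard error 0.21, edgeR adjusted p = 0.179).

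Cholesterol synthesis had the highest median of the lists of genes by function, 1.29. Of its 21 members, 16 were higher and 1 lower, against 21.4% and 18.9% of all genes. Squalene epoxidase (Sqle), which makes the first oxygenated intermediate after squalene, had 315, 414, 367 and 364 normalized counts at 4 °C and 81.8, 34.3, 81.3, 71.1 and 51.5 at 30 °C. All mice in the cold were well above all at 30 °C (log2 fold change 2.51, standard error 0.23, edgeR adjusted p = 1.16e-06). Hmgcs1 had 979.7, 1055, 1060 and 925 against 270.2, 296, 277, 436 and 333, also without overlap (log2 fold change 1.64, standard error 0.24, edgeR adjusted p = 7.06e-05). Hsd17b7 (2.17), Cyp51 (1.72), Nsdhl (1.97) and Fdps (2.11) rose with an edgeR adjusted p of at most 0.00152. Fdft1, squalene synthase, lies between Fdps and Sqle in this pathway and fell, with 194, 164, 125 and 345 against 429, 348, 464, 493 and 349, mouse 12 being just below the lowest mouse at 30 °C (log2 fold change -1.01, standard error 0.23, edgeR adjusted p = 0.00279). Without a stated strand setting, reads of Fdft1 cannot be told apart from those of Ctsb, which covers 18.3% of its exonic bases on the other strand, and 26.7% of those of Fdps are shared with a gene on the same strand.

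**Figure D4:**
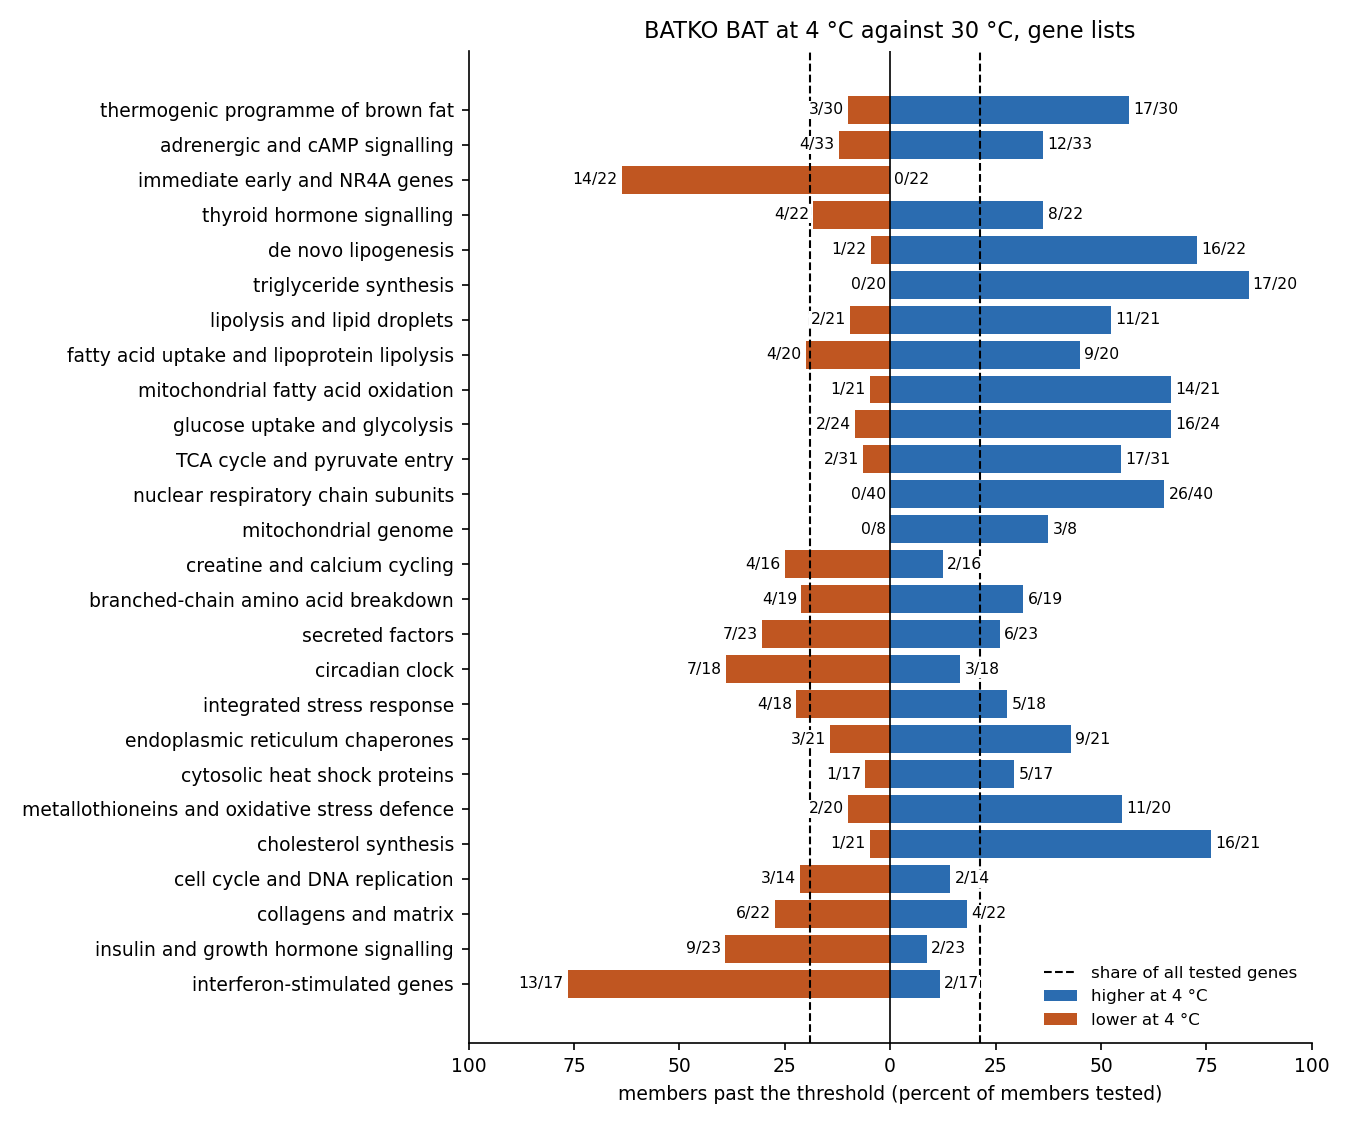
Share of the tested members of each list that rose (blue, right) or fell (orange, left) at 4 °C in BATKO mice, in percent, with the number of members at each bar. Dashed lines are the shares of all 13267 tested genes, 21.4% upregulated and 18.9% downregulated.

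Interferon-stimulated genes, which defend cells against viruses, were mostly lower at 4 °C. Of 17 tested, 13 fell (median log2 fold change -1.05) and 2 rose, against 18.9% and 21.4% of all genes. The number that rose was 1 without any one of mice 7, 8, 11, 16 and 17. With a mean count above 50 as the limit, 7 fell, since fewer members were tested. Oasl2 had 60.6, 43.6, 69.2 and 74.6 normalized counts at 4 °C and 182, 186, 215, 224 and 208 at 30 °C, and Ifit1 28.1, 11.8, 19.1 and 21.5 against 66.5, 64.5, 97.4, 75.9 and 94.2. Both were lower in every mouse in the cold, by -1.71 and -1.97 on the log2 scale (edgeR adjusted p = 2.65e-06 and 1.16e-05). Irf7, a transcription factor of this response (-1.50), and Bst2, which tethers virus particles (-1.21), fell as well, with an edgeR adjusted p of at most 9.87e-05.

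Among secreted factors, 6 of 23 rose and 7 fell, against 21.4% and 18.9% of all genes. The number that fell was 5 without any one of mice 7, 8, 15 and 17. The share that rose was near that of all genes. The share that fell was above that of all genes with all mice, but near it without any one of these mice. Leptin (Lep), the adipokine of white fat, had 47.6, 55.3, 11.9 and 47.0 normalized counts at 4 °C and 268, 402, 362, 400.2 and 227 at 30 °C, without overlap (log2 fold change -3.02, standard error 0.35, edgeR adjusted p = 8.34e-06). Bmp8b, which brown fat secretes in the cold, had 162, 121, 172 and 74.6 against 2.56, 5.04, 26.5, 16.1 and 9.57, each mouse in the cold being higher (log2 fold change 3.47, standard error 0.41, edgeR adjusted p = 9.49e-06). Fgf21, a hormone of fuel use, was low, with 10.8, 23.6, 23.9 and 18.4 against 0, 3.02, 0.946, 0.948 and 1.47 normalized counts. Its 68 counts over 4 mice and 7 over 5 give a ratio of 15.3 per library size, with a 95% counting interval from 7.02 to 39.4. Igf1 was lower in each mouse in the cold (log2 fold change -1.13, standard error 0.18, edgeR adjusted p = 0.000138).

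Of 23 genes of insulin and growth hormone signalling, 9 fell, but 4 without mouse 15 and 5 without mouse 7 or mouse 8, which is near the 18.9% of all genes, and 2 rose (median -0.47). The insulin receptor (Insr) had 997, 954, 922 and 835 normalized counts at 4 °C and 610.4, 554, 585, 463 and 485 at 30 °C, without overlap (log2 fold change 0.78, standard error 0.11, edgeR adjusted p = 6.15e-05). The growth hormone receptor (Ghr) had 1101, 1210, 1041 and 842 against 2206, 1416, 2188, 1510 and 1395 (log2 fold change -0.73, standard error 0.23, edgeR adjusted p = 0.0194), with an adjusted p of 0.0564 without mouse 12. Sesn3, a sestrin that restrains mTOR (-1.55), and Foxo3 (-0.60) fell with an edgeR adjusted p of at most 0.0056.

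Of 18 clock genes, 3 were higher and 7 lower, against 21.4% and 18.9% of all genes, so that the share that rose was below that of all genes and the share that fell above it. Arntl, which encodes the activator BMAL1, had 40.0, 29.4, 41.8 and 41.9 normalized counts at 4 °C and 16.2, 6.05, 8.51, 4.74 and 10.3 at 30 °C, without overlap (log2 fold change 2.03, standard error 0.37, edgeR adjusted p = 0.000461). Its repressor Nr1d1 had 1478, 1913, 1753 and 846 against 3118, 2874, 3313, 2487 and 2190 (log2 fold change -0.90, standard error 0.25, edgeR adjusted p = 0.00794). Clock, the partner of BMAL1, rose (0.81), and Dbp, a known output of the loop (-1.47), fell, with an edgeR adjusted p of at most 0.000686. The hour at which each mouse was killed is not given in the sources used here.

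Defence against oxidants had 11 of 20 genes higher, or 7 without mouse 7 or mouse 8, and 2 lower. Of all genes, 21.4% were higher and 18.9% lower. Sulfiredoxin (Srxn1) had 653, 757, 647 and 485 normalized counts at 4 °C and 148, 168, 186, 198 and 194 at 30 °C, without overlap (log2 fold change 1.83, standard error 0.14, edgeR adjusted p = 2.24e-07). Catalase (Cat, 1.26) and Gclm, of glutathione synthesis (0.78), rose with an edgeR adjusted p of at most 0.000294. Gpx3, the secreted glutathione peroxidase, fell, with 8280, 11200, 17200 and 15230 against 46210, 55980, 57800, 57690 and 56840. The mice at 30 °C were nearly equal, apart from mouse 13 (log2 fold change -2.08, standard error 0.23, edgeR adjusted p = 4.24e-06).

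Lists of chaperones and of the integrated stress response had members in both directions, and their counts are read against 21.4% upregulated and 18.9% downregulated among all genes. In the endoplasmic reticulum, 9 of 21 genes rose, or 5 without mice 13 and 17, which is near the share of all genes, and 3 fell. Manf, a secreted chaperone-like factor, had 824, 929, 817 and 668 normalized counts at 4 °C and 194, 246, 242, 279.8 and 304 at 30 °C, without overlap (log2 fold change 1.67, standard error 0.15, edgeR adjusted p = 8.69e-07). Dnajb11 rose (0.76), whereas Xbp1, a transcription factor of the unfolded protein response (-0.86), and Herpud1 (-0.53) fell, with an edgeR adjusted p of at most 0.00146. In the cytosol and mitochondria, 5 of 17 heat shock genes rose, among them Hspa4 (1.19), Hspe1 (1.02), Hspb8 (1.91) and Hspa8 (0.97), with an edgeR adjusted p of at most 0.00228. In this list 1 fell, or 0 without any one of mice 7, 8, 12, 13 and 17. The share of heat shock genes that rose was thus near that of all genes, and the share that fell was below it. The integrated stress response was near these shares in both directions with all mice, and had 5 of 18 genes higher, or 3 without mouse 7 or mouse 8, and 4 lower. Atf5 (1.02) and the amino acid transporter chain Slc3a2 (1.01) rose and Pck2 (-1.61) fell, with an edgeR adjusted p of at most 0.00224.

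The remaining lists had members in both directions, with counts to be read against 21.4% upregulated and 18.9% downregulated among all genes. Those of creatine and calcium cycling, the cell cycle and the matrix lay near or below these shares for genes that rose, and, with all mice, little above them for genes that fell. Breakdown of branched-chain amino acids had 6 of 19 genes higher, or 3 without mouse 8 or mouse 17, and 4 lower, with Slc25a44, their mitochondrial carrier (0.67), and Bckdhb (0.64) higher, and the phosphatase Ppm1k (-1.09) and Auh (-0.49) lower (edgeR adjusted p of at most 0.00357). Creatine and calcium cycling had 2 of 16 higher and 4 lower. The calcium pump Atp2a2 (0.81) and Alpl (1.28) rose, and the creatine transporter Slc6a8 (-1.84) and the calcium channel Itpr2 (-1.08) fell (edgeR adjusted p of at most 0.00141). Several members of this list are genes of skeletal muscle, whose RNA varied between mice as given above. The cell cycle had 2 of 14 tested genes higher and 3 lower, or 6 lower without mouse 11, with Rrm1 (0.90) and Tyms (1.10) higher and Mcm4 (-1.11) and Ccne2 (-1.42) lower (edgeR adjusted p of at most 0.00336). Of 22 matrix genes, 4 rose, or 2 without mouse 7, 12 or 13, and 6 fell, with elastin (Eln, 1.24) higher and Col15a1 (-1.66), Col6a2 (-0.97) and Col6a1 (-0.69) lower (edgeR adjusted p of at most 0.00713).

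Markers of other cell types were counted in the same way, and are read against 21.4% upregulated and 18.9% downregulated among all genes. For genes that rose, the myeloid, fibroblast and mural markers were near this share. Of 10 brown adipocyte markers 6 rose and 1 fell, or 0 without mouse 8 or mouse 17, and their sums were 197056 to 294689 at 4 °C and 72992 to 89845 at 30 °C. Of 5 white adipocyte markers 3 fell, which were Lep, Nnat and Npr3 (-1.38), and none rose, though 1 did by DESeq2 and without any one of mice 12, 13 and 17. Their sums were 843 to 1431 against 2100 to 2984. Of 12 endothelial markers 1 rose, Emcn (0.69), and 5 fell, or 8 without mouse 12, among them Cldn5 (-2.02) and Tie1 (-0.92), and sums were 7118 to 9798 against 9169 to 12923. Of 9 fibroblast markers 2 fell, Cd34 (-1.28) and Lum (-0.79), and 2 rose, or 1 without mouse 7, 8, 11, 13 or 16 and 0 without mouse 12, 14 or 15. Of 8 mural markers 2 rose, Acta2 among them (0.63), or 1 without mouse 7, 11, 12, 13 or 15, and Rgs5 fell (-0.74), joined by 1 other without mouse 13. Of 11 myeloid markers 2 rose, or 1 without mouse 7, with Cd163 the larger (log2 fold change 1.61, standard error 0.31, edgeR adjusted p = 0.000718), and 0 fell, or 1 without mouse 12, 13 or 15. Of 7 nerve markers 1 rose, or 0 without mouse 7, 8, 13 or 17 and 2 without mouse 11, and both lymphocyte markers tested missed the threshold. Of 5 erythroid markers 3 rose, Alas2 (1.81), Hbb-bs (1.69) and Hbb-bt (1.60). The part of cell composition in the results was not tested.

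CTRL mice of the same experiment give the response to compare with. In them, 3514 genes (26.5%) were upregulated and 3000 (22.6%) downregulated at 4 °C. Of the genes upregulated in BATKO mice, 2305 were also upregulated in CTRL mice, which is 81.3% of the former and 65.6% of the latter. Of those downregulated, 1805 were shared (72.1% and 60.2%), and 22 genes were called in opposite directions. The difference between the responses was tested as an interaction. It was above 0 for 42 genes (0.317%) and below 0 for 107 (0.807%), 149 in all, whereas 2471 had an unadjusted p under 0.05, and DESeq2 called 645. Of these 149 genes, 60 rose in both genotypes but by less in BATKO mice, 17 fell in both but by less in BATKO mice, and none changed in the same direction in both by more in BATKO mice. In CTRL mice, 37 were upregulated and 15 downregulated without passing the test in BATKO mice, whereas in BATKO mice 3 were upregulated and 2 downregulated without passing it in CTRL mice. The other 15 were called in opposite directions, 7 being upregulated and 8 downregulated in BATKO mice. This number depended on single mice. It was 5 without CTRL mouse 1, 20 without CTRL mouse 2, 17 without CTRL mouse 21, 33 without CTRL mouse 19 or 20, and 907 without CTRL mouse 5. Without BATKO mice 7, 8 and 12 it was 49, 61 and 55, and without BATKO mice 13, 14, 16 and 17 it was 227, 41, 36 and 38.

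**Figure D5:**
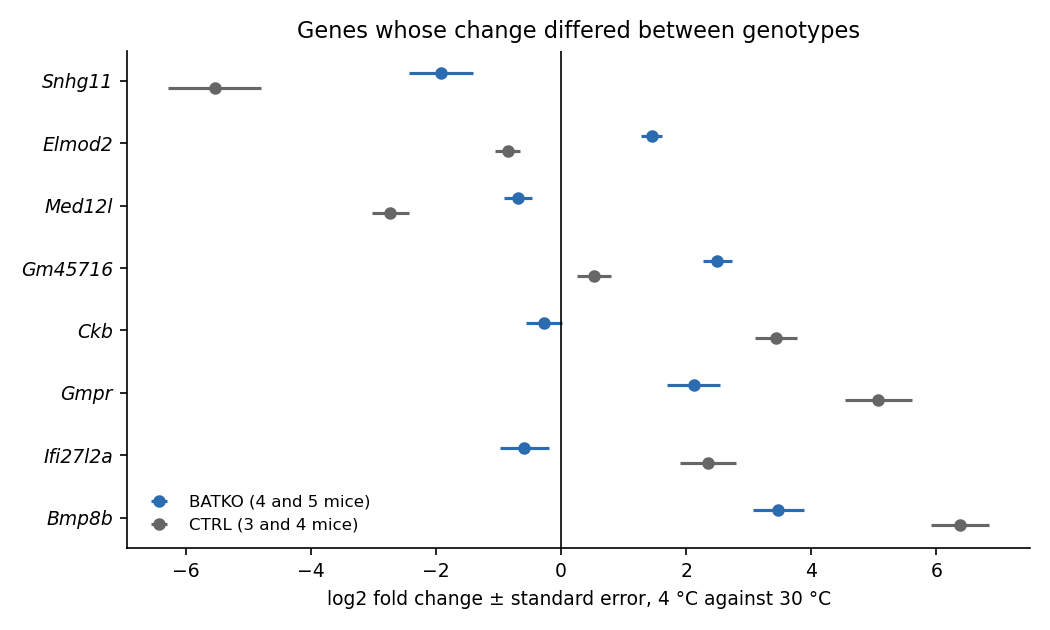
Log2 fold change (4 °C against 30 °C) with its standard error in BATKO mice (blue, 4 and 5 mice) and CTRL mice (grey, 3 and 4 mice) for the 4 genes in each direction with the largest difference between genotypes past the threshold. Elmod2 rose in BATKO mice (1.45) and fell in CTRL mice (-0.85), and Ckb rose in CTRL mice alone (3.43).

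The difference was most stable for Elmod2 and Ckb, whose calls held without any one of the 16 mice. Elmod2, whose product acts on small GTPases of the Arf family, lies on chromosome 8 from 83312632 to 83332486, next to Ucp1. It had 1816, 1619, 2757 and 2491 normalized counts in BATKO mice at 4 °C and 735, 799, 903, 797 and 748 at 30 °C (log2 fold change 1.45, standard error 0.17, edgeR adjusted p = 6.61e-06). In CTRL mice it had 123 to 169 at 4 °C and 215 to 326 at 30 °C (log2 fold change -0.85), a difference of 2.30 (standard error 0.26, edgeR adjusted p = 0.000803). All 9 BATKO mice were above all 7 CTRL mice. Ckb, the creatine kinase of brown fat, had 67.1, 119, 122 and 69.5 against 87.8, 188, 62.4, 112 and 118 in BATKO mice, with overlap (log2 fold change -0.27, standard error 0.29, edgeR adjusted p = 0.48). In CTRL mice it had 485 to 728 at 4 °C and 34.7 to 73.9 at 30 °C (log2 fold change 3.43), a difference of -3.70 (standard error 0.44, edgeR adjusted p = 0.000969).

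Bmp8b rose in both genotypes, but CTRL mice had 1277 to 2034 normalized counts at 4 °C and 9.94 to 24.3 at 30 °C, a difference of -2.90 on the log2 scale (edgeR adjusted p = 0.0357). Gmpr, which recycles guanine nucleotides, had 614, 1442, 5264 and 1576 at 4 °C and 414, 536, 406, 607 and 597 at 30 °C in BATKO mice against 8861 to 13279 and 177 to 393 in CTRL mice, a difference of -2.96 (edgeR adjusted p = 0.0373), or -3.83 without mouse 11. Ifi27l2a, an interferon-induced gene, did not pass the test in BATKO mice (-0.59, edgeR adjusted p = 0.249), or fell without mouse 11 (edgeR adjusted p = 0.0252), and rose in CTRL mice (2.34), a difference of -2.93 (edgeR adjusted p = 0.0316). Snhg11 fell in both, by -1.93 in BATKO and -5.54 in CTRL mice (edgeR adjusted p of the difference 0.0487), with mouse 12 far above the others in the cold (70.4, 82.4, 52.5 and 414). Without mouse 12 the log2 fold change of Snhg11 in BATKO mice was -3.12 and the difference 2.45, and without CTRL mouse 5 the difference was 4.31, against 3.61 with all mice. Igf1 (difference 1.25, edgeR adjusted p = 0.0393) fell less and Slc3a2 (difference -1.47, edgeR adjusted p = 0.0486) rose less in BATKO mice. These 6 calls were lost without 10 to 13 of the 16 mice, one at a time. They held only without BATKO mice 11, 13 or 14 or CTRL mouse 5 for Bmp8b, 7, 11, 13 or 15 or CTRL 5 for Gmpr, 11, 13 or 15 or CTRL 5, 20 or 22 for Ifi27l2a, 11 or 15 or CTRL 5 for Snhg11, 11, 13 or 15 or CTRL 5 for Igf1, and 13 or 15 or CTRL 5 for Slc3a2.

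Med12l, a paralog of a Mediator subunit, fell in both genotypes, by -0.68 in BATKO mice, where its adjusted p was 0.055, 0.056, 0.0706 and 0.0605 without mice 14, 15, 11 and 7, and by -2.73 in CTRL mice (edgeR adjusted p of the difference 0.022). Gm45716 rose in BATKO mice (log2 fold change 2.50, standard error 0.24, edgeR adjusted p = 1.43e-06), and in CTRL mice its log2 fold change was 0.52 (edgeR adjusted p = 0.123, and 0.0226 for the difference). It shares 21.5% of its exonic bases with Mmd and another gene on the same strand, so its reads are uncertain. The difference in Med12l was lost without CTRL mouse 1, 2 or 21, and that in Gm45716 without CTRL mouse 1 or 21. For Ucp1, Dio2, Ppargc1a and Thra the difference did not pass the test, at -0.97 (standard error 0.64, edgeR adjusted p = 0.433), -0.62 (1.15, 0.823), -1.38 (0.46, 0.119) and -0.75 (0.29, 0.166). Of the 30 thermogenic genes, 0 had a difference past the threshold by edgeR. At an unadjusted p under 0.05 the difference was below 0 for 11 and above 0 for 1, and DESeq2 called 6 and 1. Their median log2 fold change was 0.82 in BATKO and 1.49 in CTRL mice, and the difference of these medians was not tested.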

How the data were processed

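RNA of the BAT of each mouse had been extracted with Trizol and made into libraries with the Lexogen total RNA SENSE kit (NextSeq 500). The authors aligned reads to GRCm38 (mm10) with Bowtie (the submitters' processing notes name Bowtie2 2.3.2.2), removed reads of low alignment quality, assigned the remaining reads to genes by htseqcount, and deposited the raw counts. The annotation and strand setting are not stated. Fold changes of overlapping genes are therefore uncertain. Beside those marked in the text, Uqcrc2, Dbp, Ccne2, Med12l, Gmpr, Abhd5, Lipe, Alas2, Bmp8b and Hmgcs1 share at least 10% of their exonic bases with a gene on the other strand.

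Of 55341 listed genes, the 13267 that averaged more than 10 normalized counts across the 16 mice of the temperature experiment were tested with edgeR 4.0.16 (R 4.3.3; TMM normalization, quasi-likelihood test, Benjamini-Hochberg adjustment over all tested genes, threshold 0.05), in 1 fit with a term per group of genotype and temperature. Normalized counts are counts scaled to the mean effective library size of 10870000. Standard errors were derived from the F statistic. Counting intervals cover counting error only. Counts of any 2 mice of a group differed by at least 12.3 in chi-square per degree of freedom, so no library was a copy of another of its group. Positions come from GENCODE M21, which holds 55327 of the genes.

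The genes named are the 12 largest changes in each direction among called genes with a mean above 50 and no overlap between the BATKO groups, up to 4 members of each list with the lowest adjusted p, the 4 largest genotype differences in each direction, and Ucp1, Dio2, Thra, Thrb, Ppargc1a, Fgf21, Gpat3, Hr and Elovl3. Members of marker lists that missed the threshold, and the most fragile marker calls, are given as counts. Adrb1, Adrb3, Egr1, Fos, Junb, Nr4a1, Fasn, Acly, Agpat2, Dgat2, Plin2, Pnpla2, Lipe, Angptl4, Angptl8, Hk2, Slc2a4, Hmgcs1, Fdps, Fdft1, Nr1d1, Cidea, Acot11, Irf4 and Ghr were added after their values were seen. Some genes that these rules name are not reported here. The comparison, the lists and the rules were chosen with earlier results of these data known. Alternatives were DESeq2 1.42.0, RLE normalization, library sizes without mitochondrial genes, no count limit, a limit of 50, only the groups compared, each mouse left out, and, added after the data were seen, muscle markers as a covariate and both muscle-rich mice at 30 °C left out.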

Additional observations from a re-analysis of the deposited data

Results flagged for a closer look

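In 19 of 356 groups of values examined, 1 mouse lay apart from the others of its group, measured as the gap to its nearest neighbour over the spread from lowest to highest. Chance gives about 1 in 20 groups, here 17.8. At 4 °C, mouse 8 stood apart in Egr3 with 8.24 normalized counts, below the others at 40.6 to 46.5 (ratio 0.845) and in Arntl with 29.4 normalized counts, below the others at 40.0 to 41.9 (ratio 0.85). At 4 °C, mouse 11 stood apart in Nnat with 33.4 normalized counts, below the others at 86.0 to 94.2 (ratio 0.865), in Idh2 with 781 normalized counts, above the others at 519 to 537 (ratio 0.933), in Herpud1 with 1208 normalized counts, above the others at 934 to 970.2 (ratio 0.869) and in Ppargc1a with 632 normalized counts, above the others at 409 to 436 (ratio 0.881). At 4 °C, mouse 12 stood apart in Impdh1 with 481 normalized counts, above the others at 134 to 168 (ratio 0.902), in Rrm1 with 132 normalized counts, below the others at 186 to 189 (ratio 0.941), in Snhg11 with 414 normalized counts, above the others at 52.5 to 82.4 (ratio 0.917) and in Acot11 with 1236 normalized counts, below the others at 2562 to 2777 (ratio 0.86). At 30 °C, mouse 13 stood apart in Cdsn with 264 normalized counts, below the others at 458 to 519 (ratio 0.759) and in Gpx3 with 46210 normalized counts, below the others at 55980 to 57800 (ratio 0.842). At 30 °C, mouse 14 stood apart in Apcdd1 with 372 normalized counts, above the others at 228 to 239 (ratio 0.923), in Pck2 with 449.6 normalized counts, above the others at 269 to 305 (ratio 0.805) and in Junb with 510.1 normalized counts, above the others at 222 to 304 (ratio 0.716). At 30 °C, mouse 15 stood apart in Hspe1 with 936 normalized counts, above the others at 665 to 728 (ratio 0.768). At 30 °C, mouse 17 stood apart in Gk with 268 normalized counts, above the others at 109.9 to 152 (ratio 0.735), in Gpam with 930.4 normalized counts, below the others at 1117 to 1175 (ratio 0.765) and in Dio2 with 865 normalized counts, above the others at 66.5 to 261 (ratio 0.756).

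The change with temperature differed between BATKO and CTRL mice, by the interaction test of edgeR, in Bmp8b (-2.90), Igf1 (1.25), Slc3a2 (-1.47), Snhg11 (3.61), Elmod2 (2.30), Med12l (2.05), Gm45716 (1.98), Ckb (-3.70), Gmpr (-2.96) and Ifi27l2a (-2.93), given as log2 fold change in BATKO minus that in CTRL mice. Leaving out each of the 16 mice in turn never lost the calls of Elmod2 and Ckb, and lost each of the others without at least 2 of the mice.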

How the results depend on the processing

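The number of genes called between temperatures in BATKO mice stayed within 1.5 times the 5340 of the main setting under each alternative run, from 4305 (mean count above 50) to 5430 (DESeq2), with 51.7% to 57.7% of calls upward. In CTRL mice it was 5191 to 6573 against 6514. The number of genotype differences, 149, depended on the setting. It was 645 with DESeq2 and 50 without mice 13 and 17, and it ran from 5 (without mouse 1) to 907 (without mouse 5) when each mouse was left out, staying within 1.5 times only without mouse 11, 15 or 22. The cause was not tested. Of 2846 values of the 168 named genes under the alternatives, 2835 kept their direction and their side of the threshold, 9 lost the call, 2 gained it, and 0 changed sign past the threshold. Calls were lost for Adrb3, Ghr, Med12l and Thra, with a highest edgeR adjusted p of 0.0706, and gained for Ifi27l2a without mouse 11 and Fos without mouse 7. Of 230 values of the 10 genotype differences named, 80 lost the call and 0 changed sign. Ucp1 differed between temperatures by 0.810 percentage points of all counts and by 1.56 of nuclear counts. No paired analysis was possible because the groups compared share no mouse number. Genotype differences rest on 3 to 5 mice a group, and a gene that missed the threshold is not shown to respond alike in both genotypes.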
